A study of Mus musculus with 4 samples.

Results

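The IFIT and OAS families are antiviral effector genes that interferon switches on, and 10 of their members were followed across the 4 libraries of this study. Members were taken by gene symbol from the deposited tables: Ifit1, Ifit2, Ifit3 and Ifit3b, and Oas1a, Oas1g, Oas2, Oas3, Oasl1 and Oasl2. They are 10 of 13685 genes listed in any of the 3 tables. The cells were dendritic cells grown from bone marrow of C57BL/6 mice aged 4 weeks. The sample titles label them mDCs without spelling this out. The cells were grown over 7 days of culture in which GM-CSF and IL-4 were each present at 10 ng/ml. They received the secreted ligand Wnt2, or CAF.CM (medium conditioned by CAF cells, a name that usually stands for cancer-associated fibroblasts) that had been incubated with a Wnt2 antibody, or CAF.CM alone, or control medium. Each group has 1 column of values, called a library here. The series text mentions triplicates, and the sources used here do not say whether a column pools several cultures, nor the dose and duration of these treatments. No difference below therefore has a replicate check, and none has a p-value of its own.

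Interferon receptors activate the kinases Jak1 and Tyk2, which phosphorylate Stat2 among others. Stat2 joins Irf9 in a complex that binds a DNA motif called the interferon-stimulated response element (ISRE) at genes such as IFIT and OAS. IFIT proteins bind viral RNA, for instance RNA whose cap is not fully methylated, and block its translation. OAS proteins sense double-stranded RNA and make oligoadenylates that lead to RNA degradation, while the OAS-like proteins have other or further roles. Dendritic cells express these genes at a low level at rest and at a high level after exposure to interferon or to viral nucleic acid.

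All 4 IFIT members lie in a cluster on chromosome 19 of the mouse build GRCm38. Ifit2 (ENSMUSG00000045932) spans chr19:34550694-34576419, Ifit3 (ENSMUSG00000074896) chr19:34583531-34588731, Ifit3b (ENSMUSG00000062488) chr19:34607970-34613401 and Ifit1 (ENSMUSG00000034459) chr19:34640871-34650009, all on the plus strand. The 6 OAS members lie on chromosome 5. Oasl2 (ENSMUSG00000029561, chr5:114896936-114912234) and Oasl1 (ENSMUSG00000041827, chr5:114923240-114937915) are neighbours on the plus strand. Oas2 (ENSMUSG00000032690, chr5:120730333-120749853), Oas3 (ENSMUSG00000032661, chr5:120753098-120777661), Oas1g (ENSMUSG00000066861, chr5:120876142-120887613) and Oas1a (ENSMUSG00000052776, chr5:120896256-120907521) form a separate cluster on the minus strand. GENCODE mouse release 21 annotates each of the 10 as protein-coding.

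Promoters of 6 members are shown, those of both copy pairs and of Oas3, which hold the ISRE core, and that of Oasl1, which does not. Each is the 250 bases before the RefSeq gene start (build GRCm38.p6), written 5′ to 3′ on the gene's strand. Capitals mark every match to the ISRE core, searched on both strands as GAAA, any 2 bases and GAAA again, so that a match on the opposite strand reads TTTC, any 2 bases and TTTC. Matches may overlap each other.
Ifit3: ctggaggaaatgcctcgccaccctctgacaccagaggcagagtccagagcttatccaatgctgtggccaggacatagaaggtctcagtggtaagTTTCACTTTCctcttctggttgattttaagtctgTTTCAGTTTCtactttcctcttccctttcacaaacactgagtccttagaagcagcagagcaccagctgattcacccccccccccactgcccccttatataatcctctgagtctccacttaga
Ifit3b: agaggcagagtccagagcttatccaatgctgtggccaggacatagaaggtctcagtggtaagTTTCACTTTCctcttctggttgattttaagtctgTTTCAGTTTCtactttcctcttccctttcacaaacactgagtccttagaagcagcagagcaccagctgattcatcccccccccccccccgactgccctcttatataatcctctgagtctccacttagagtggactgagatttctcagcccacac
Oas3: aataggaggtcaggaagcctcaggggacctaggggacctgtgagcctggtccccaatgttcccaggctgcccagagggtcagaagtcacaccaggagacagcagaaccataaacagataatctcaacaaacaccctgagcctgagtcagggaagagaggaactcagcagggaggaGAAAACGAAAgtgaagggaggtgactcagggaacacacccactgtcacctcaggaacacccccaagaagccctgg
Oas1a: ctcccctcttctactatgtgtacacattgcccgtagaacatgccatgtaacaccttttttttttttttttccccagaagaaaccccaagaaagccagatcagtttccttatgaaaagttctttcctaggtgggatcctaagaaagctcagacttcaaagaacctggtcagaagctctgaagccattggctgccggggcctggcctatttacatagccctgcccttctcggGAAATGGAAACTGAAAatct
Oas1g: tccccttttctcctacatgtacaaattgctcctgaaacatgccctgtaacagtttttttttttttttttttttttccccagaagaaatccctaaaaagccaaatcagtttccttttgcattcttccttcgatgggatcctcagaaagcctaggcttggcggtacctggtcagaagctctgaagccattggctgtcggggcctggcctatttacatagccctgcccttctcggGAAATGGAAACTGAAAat
Oasl1: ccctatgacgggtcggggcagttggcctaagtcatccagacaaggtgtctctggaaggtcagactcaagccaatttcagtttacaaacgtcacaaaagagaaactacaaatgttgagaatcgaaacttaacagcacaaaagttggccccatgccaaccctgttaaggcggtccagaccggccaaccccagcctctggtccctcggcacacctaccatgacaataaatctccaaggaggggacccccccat

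These windows lie at chr19:34583279-34583528 (Ifit3), chr19:34607707-34607956 (Ifit3b), chr5:120777660-120777909 (Oas3, minus strand), chr5:120907526-120907775 (Oas1a, minus strand), chr5:120887614-120887863 (Oas1g, minus strand) and chr5:114922990-114923239 (Oasl1). Of the 10 members 9 matched a RefSeq promoter, and Oas2 is named only. The ISRE core occurred in 6 of these 9, with 2 matches each in Ifit1, Ifit3 and Ifit3b, 2 overlapping matches each in Oas1a and Oas1g, and 1 in Oas3. Ifit2, Oasl1 and Oasl2 held none in this window. Among all 27025 promoters of the same length 3.04% held a match. The gamma-activated site motif, searched as TTCNNNGAA on both strands, occurred in Ifit2 and Oas1a, against 7.18% of all promoters. A match describes letters in this window and says nothing of binding.

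Ifit3 and Ifit3b are near copies, and so are Oas1a and Oas1g. Their longest transcripts were 98.0% identical for Ifit3 and Ifit3b and 97.8% for Oas1a and Oas1g, over aligned bases without gaps. The promoters were 99.5% and 86.9% identical in the same order. The share of 31-base words of a transcript found in other genes was 61.8% for Ifit3, 55.2% for Ifit3b, 68.8% for Oas1a and 65.4% for Oas1g, so the authors' counting could split their reads and their separate values are uncertain. It was 10.5% for Ifit1, 3.03% for Oas3, below 0.5% for Oasl1 and Oasl2, and 0 for Ifit2 and Oas2. The kit marks strand, but the sources used here do not say whether the counting used it. Oasl1 shares 38 exon bases with the antisense gene Gm13822, which no table lists.

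The tables held 154399767 reads in listed genes with Wnt2, 22791494 with CAF.CM + Wnt2 antibody, 25225220 with CAF.CM and 143071376 in control medium. 1 read was worth 0.00651, 0.0431, 0.0384 and 0.00706 CPM (read counts scaled to a common library size by the authors) in that order, so low genes are measured less precisely in both CAF.CM libraries. A gene appears in a table once any library of that table held about 1 CPM of it. Markers of dendritic cells were listed in 10 of 11 cases, with summed levels of 643, 1786, 1875 and 3533 CPM, again in the order Wnt2, antibody, CAF.CM and control medium. Cd209a was not listed, Flt3 stood at 1.17 CPM with Wnt2 and 0.70 CPM in control medium, and Itgax at 223, 30.3, 47.7 and 888 CPM. Other dendritic markers followed other orders, with H2-Ab1 at 71.0, 521, 483 and 489 CPM, Cd74 at 119, 463, 483 and 1055 CPM, Zbtb46 at 10.3, 21.2, 17.1 and 15.7 CPM and Irf4 at 89.0, 124, 172 and 91.2 CPM. All 8 macrophage and monocyte markers were listed, with sums of 19829, 5674, 8539 and 28109 CPM, of which Lyz2 alone gave 18050, 4425, 6907 and 25764 CPM. Adgre1 stood at 169, 331, 404 and 349 CPM and Fcgr1 at 5.98, 7.93, 15.8 and 12.7 CPM. For plasmacytoid dendritic cells, a rich source of interferon, 3 of 6 markers were listed, with sums of 112, 234, 229 and 98.3 CPM, and Siglech was not. Most of the difference lay in Bst2, itself an interferon-induced gene, at 28.8, 176, 163 and 35.0 CPM. Neutrophil sums (2 of 10 listed) ran between 2.54 and 13.3 CPM, fibroblast sums (7 of 10) between 12.8 and 18.1 CPM and T and NK cell sums (3 of 6, none listed for the antibody library) up to 4.755 CPM, while 0 of 4 B cell and 0 of 4 basophil and mast cell markers were listed. The fibroblast gene Dcn differed most within its list, at 1.01, 13.9, 10.7 and 0.51 CPM in the same order, while Col1a1, Lum and Pdgfra were not listed. The part of these shifts in the results below was not tested. Fewer cells of a type and less RNA per cell cannot be told apart in such bulk libraries.

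With CAF.CM the IFIT genes and 4 of the 6 OAS genes stood well above control medium, with the antibody most of them were lower than with CAF.CM alone, and with Wnt2 alone only IFIT genes passed 2-fold, downward. Oas1a and Oas1g stood apart, since CAF.CM left them within 2-fold of control medium. Higher and lower are used as calls for a log2 ratio, computed with a prior count of 2 reads, of at least 1 in size, which is 2-fold. Intervals are exact binomial intervals at 95% and cover counting error only. Reads without molecular identifiers are not independent molecules, and the spread between cultures is not in these intervals.

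**Figure D1:**
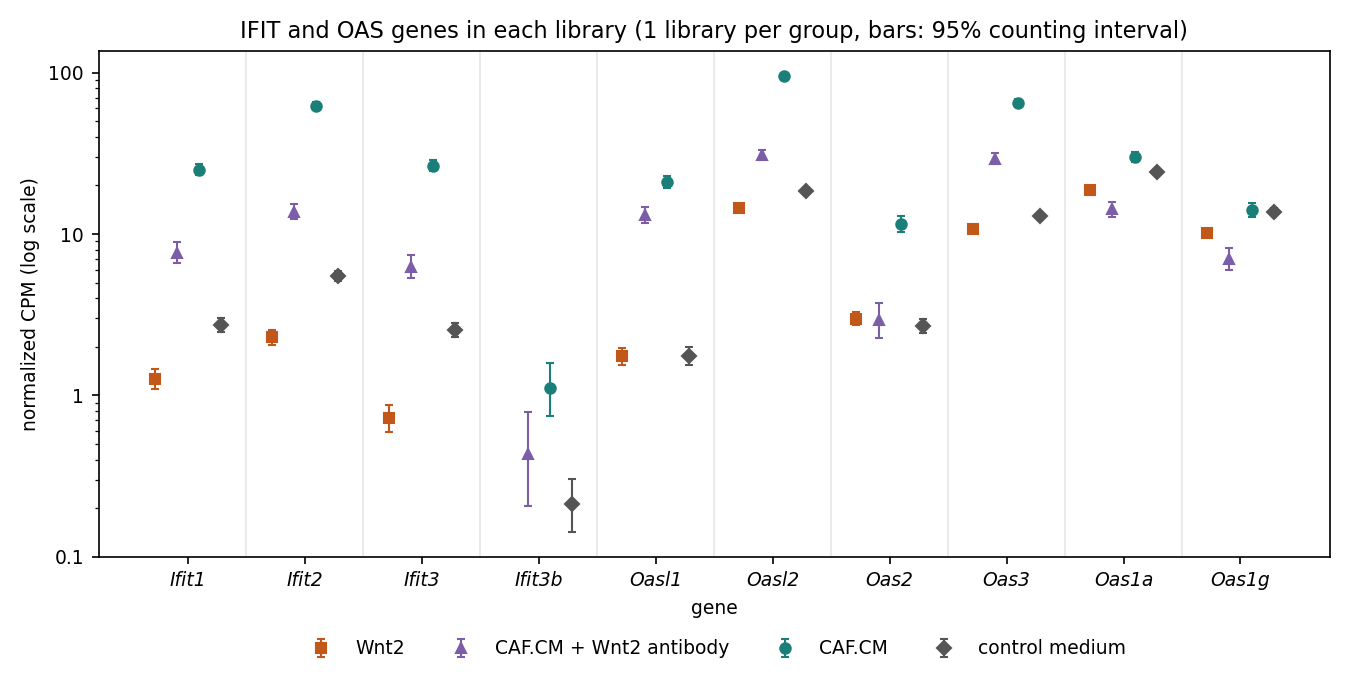
Normalized CPM (log scale) of the 10 IFIT and OAS genes in the Wnt2, CAF.CM + Wnt2 antibody, CAF.CM and control medium libraries, with 95% counting intervals as bars and 1 library per group. Ifit3b has no Wnt2 value because that table does not list it. CAF.CM gave the highest level for every gene shown, and for Oas1g its interval overlaps that of control medium.

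Ifit1, which in mice recognises RNA whose cap is not fully methylated, had 1.27 CPM with Wnt2, 7.67 CPM with CAF.CM + Wnt2 antibody, 25.1 CPM with CAF.CM and 2.73 CPM in control medium. Ifit2, which limits virus spread in the mouse nervous system, had 2.30 CPM with Wnt2, 13.8 CPM with the antibody, 62.3 CPM with CAF.CM and 5.50 CPM in control medium. Ifit3, whose human counterpart stabilises RNA binding by IFIT1, had 0.72 CPM with Wnt2, 6.29 CPM with the antibody, 26.6 CPM with CAF.CM and 2.54 CPM in control medium. The libraries kept 1 order for all 3 genes, with CAF.CM highest, the antibody library next, then control medium, and Wnt2 lowest, and no neighbouring counting intervals overlapped. Ifit3b rests on few reads, 10 with the antibody, 29 with CAF.CM and 30 in control medium, which gave 0.43, 1.11 and 0.21 CPM. It reached 1 CPM only with CAF.CM, so its listing depends on the library where it is high, and it was not listed beside Wnt2.

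Oasl1, an OAS-like protein that in mice restrains translation of Irf7 mRNA, had 1.74 CPM with Wnt2, 13.1 CPM with CAF.CM + Wnt2 antibody, 21.1 CPM with CAF.CM and 1.77 CPM in control medium. Oasl2, an OAS-like protein that in mice keeps synthetase activity, had 14.4 CPM with Wnt2, 30.985 CPM with the antibody, 94.8 CPM with CAF.CM and 18.6 CPM in control medium. Both were high in the CAF.CM libraries, and for Oasl1 the Wnt2 and control medium intervals overlapped. Oas3, a large synthetase that prefers long double-stranded RNA, had 10.8 CPM with Wnt2, 29.4 CPM with the antibody, 65.2 CPM with CAF.CM and 13.0 CPM in control medium. Oas2, a synthetase built of tandem OAS units, had 2.99 CPM with Wnt2, 2.93 CPM with the antibody, 11.5 CPM with CAF.CM and 2.70 CPM in control medium. Only CAF.CM stood out for Oas2, and the intervals of the other 3 libraries overlapped.

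Oas1a, a small synthetase with enzyme activity in mice, had 18.8 CPM with Wnt2, 14.2 CPM with CAF.CM + Wnt2 antibody, 30.1 CPM with CAF.CM and 24.2 CPM in control medium. Its near copy Oas1g had 10.2 CPM with Wnt2, 7.02 CPM with the antibody, 14.1 CPM with CAF.CM and 13.8 CPM in control medium. For both the antibody library was the lowest of the 4 and CAF.CM the highest, though for Oas1g CAF.CM and control medium overlapped within counting error.

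With CAF.CM the largest differences from control medium among the members were those of Oasl1, Ifit2, Ifit3 and Ifit1. Oasl1 was 11.8-fold higher with CAF.CM than in control medium (log2 ratio 3.56, interval 3.36 to 3.80). Ifit2 was 11.3-fold higher (log2 ratio 3.50, interval 3.38 to 3.63), Ifit3 10.4-fold (3.37, interval 3.20 to 3.57) and Ifit1 9.12-fold (3.19, interval 3.02 to 3.38). Oasl2 (5.10-fold, log2 ratio 2.35), Oas3 (5.02-fold, 2.33), Ifit3b (4.82-fold, 2.27) and Oas2 (4.24-fold, 2.08) formed a lower tier. The wide interval of Ifit3b (1.61 to 3.18) overlaps that of Ifit1. Oas1a was within 2-fold at 0.31 (interval 0.20 to 0.43) and Oas1g at 0.03 (interval -0.13 to 0.19). In all, 8 of 10 members were at least 2-fold higher and 0 lower, where 6.68% of the 13329 genes in that comparison were higher and 8.69% lower. The members' median log2 ratio was 2.34, against -0.04 over all genes. Leaving aside Ifit3b, whose listing rests on CAF.CM, 7 of the other 9 were higher. The authors' deposited table gave an adjusted p below 0.05 for 8 of 10 members in that comparison, where 32.6% of all its genes had such a value, and 0.269 for Oas1a and 0.934 for Oas1g. The sources used here do not say how a dispersion was obtained from these columns.

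**Figure D2:**
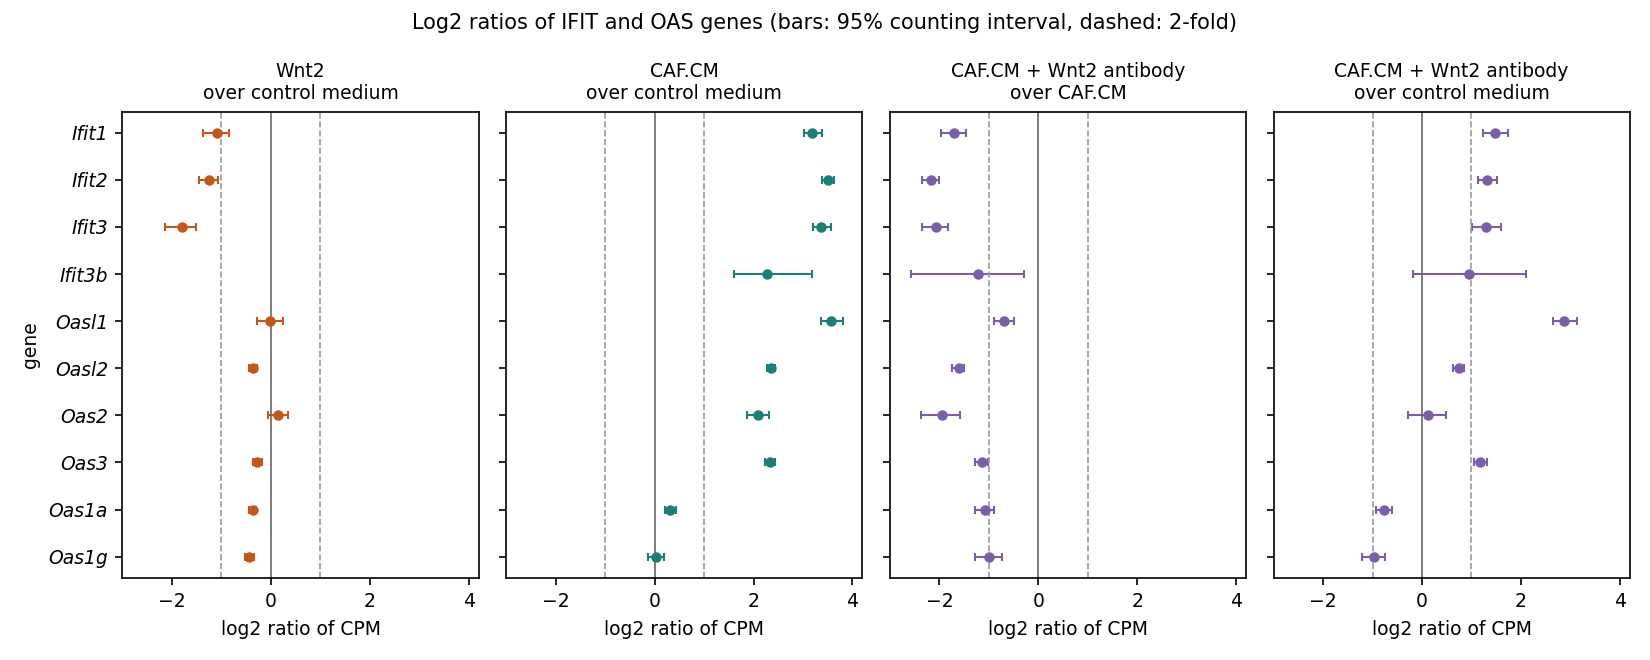
Log2 ratios of CPM for the 10 IFIT and OAS genes in 4 comparisons, with 95% counting intervals as bars, a solid line at 0 and dashed lines at 2-fold. In the CAF.CM panel 8 genes lie beyond the right dashed line and Oas1a and Oas1g near 0, and in the panel of antibody over CAF.CM every point is below 0.

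With the antibody every member's level was below that in CAF.CM alone, and Ifit2, Ifit3, Oas2 and Ifit1 had the lowest ratios. Ifit2 was 4.50-fold lower with CAF.CM + Wnt2 antibody than with CAF.CM (log2 ratio -2.17, interval -2.35 to -2.002), which by size ranked 42 of 13072 genes. Ifit3 stood at -2.06 (interval -2.35 to -1.82), Oas2 at -1.95 (interval -2.38 to -1.59) and Ifit1 at -1.70 (interval -1.96 to -1.47). Oasl2 followed at -1.61, Ifit3b at -1.22, Oas3 at -1.15 and Oas1a at -1.08. Oas1g was 1.995-fold lower and so just short of 2-fold, and Oasl1 had the smallest ratio at -0.69 (interval -0.90 to -0.48). In this comparison 8 of 10 members were lower and 0 higher, where 3.65% of all genes were lower and 1.02% higher, and the members' median was -1.42 against -0.04 over all genes. Leaving aside Ifit3b, which this table too lists through CAF.CM, 7 of the other 9 were lower. The intervals of Ifit3b (-2.57 to -0.29) and Oas1a (-1.27 to -0.89) include 2-fold. The authors' deposited table gave an adjusted p below 0.05 for 9 of 10 members, where 6.98% of all genes had one, with Oasl1 at 0.0401 and Ifit3b at 0.108. This comparison and the one of CAF.CM with control medium share the CAF.CM library, on opposite sides of the ratio, so their values are set side by side and not related to each other.

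Set directly against control medium, the antibody library still had Ifit1, Ifit2, Ifit3, Oas3, Oasl1 and Oasl2 above it, Oas1a and Oas1g below it, and Oas2 and Ifit3b not distinguishable from it within counting error. Oasl1 was 7.33-fold higher with CAF.CM + Wnt2 antibody than in control medium (log2 ratio 2.87, interval 2.64 to 3.14). Ifit1 stood at 1.48 (interval 1.22 to 1.75), Ifit2 at 1.32, Ifit3 at 1.30 and Oas3 at 1.18. Oasl2 was within 2-fold at 0.74 (interval 0.62 to 0.86), and Ifit3b too at 0.95 with an interval from -0.17 to 2.10. Oas2 had 2.93 CPM with the antibody and 2.70 CPM in control medium, a log2 ratio of 0.12 whose interval of -0.28 to 0.49 spans 0. Oas1a stood at -0.77 (interval -0.94 to -0.60) and Oas1g at -0.97 (interval -1.21 to -0.74). Counted at 2-fold, 5 of 10 members were higher and 0 lower, where 8.06% of the 12848 genes shared by the tables were higher and 12.6% lower, and the members' median was 1.06 against -0.06 over all genes. This comparison joins columns from separate tables, in which CAF.CM had identical values for all 12848 shared genes.

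With Wnt2 alone the IFIT genes were lower than in control medium while the OAS genes stayed within 2-fold. Ifit3 was 3.47-fold lower with Wnt2 than in control medium (log2 ratio -1.80, interval -2.14 to -1.51), Ifit2 2.38-fold (-1.25, interval -1.44 to -1.08) and Ifit1 2.14-fold (-1.10, interval -1.36 to -0.86). Ifit1's interval includes 2-fold. In this comparison Ifit3 reached 1 CPM only in control medium (2.54 CPM, against 0.72 CPM with Wnt2). Its listing here therefore depends on the library where it is high. Leaving Ifit3 aside, Ifit1 and Ifit2 were the members called lower. Oas1g stood at -0.43, Oas1a and Oasl2 at -0.36 and Oas3 at -0.27, each with an interval below 0. Oasl1 at -0.02 (interval -0.27 to 0.24) and Oas2 at 0.15 (interval -0.05 to 0.35) were not distinguishable from control medium at this depth. Of the 9 members listed, 3 were lower and 0 higher, where 2.93% of 13120 genes were lower and 2.87% higher, and the median was -0.36 against -0.02 over all genes. The authors' deposited table gave an adjusted p below 0.05 for the same 3 IFIT genes and for none of the 6 OAS genes, where 15.4% of all genes had one. This comparison shares the control medium library with that of CAF.CM.

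Within the families, Ifit2 gave the most IFIT reads in every library, while the leading OAS gene differed between libraries. Summed IFIT levels were 28.2 CPM with CAF.CM + Wnt2 antibody, 115 CPM with CAF.CM and 10.99 CPM in control medium, and 4.29 CPM over the 3 genes listed with Wnt2. Ifit2 gave 53.6% of IFIT reads with Wnt2, 48.9% with the antibody, 54.1% with CAF.CM and 50.0% in control medium. Ifit1 gave 29.6%, 27.2%, 21.8% and 24.9% in the same order. Summed OAS levels were 58.9 CPM with Wnt2, 97.7 CPM with the antibody, 237 CPM with CAF.CM and 74.0 CPM in control medium. Oas1a and Oas1g together had 29.01 CPM with Wnt2, 21.2 CPM with the antibody, 44.2 CPM with CAF.CM and 38.0 CPM in control medium.

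Oas1a led the OAS reads with Wnt2 and in control medium, and Oasl2 led them in both CAF.CM libraries. Oas1a gave 31.9% of OAS reads with Wnt2 (interval 30.9 to 32.9), 14.6% with CAF.CM + Wnt2 antibody (13.1 to 16.1), 12.7% with CAF.CM (11.9 to 13.6) and 32.7% in control medium (31.8 to 33.6). Oasl2 gave 24.5% with Wnt2, 31.7% with the antibody, 40.03% with CAF.CM and 25.1% in control medium. The Oasl2 share was thus highest with CAF.CM, whereas that of Oasl1 was highest with the antibody. Oasl1 gave 2.96% with Wnt2, 13.4% with the antibody (interval 12.0 to 14.9), 8.92% with CAF.CM (8.22 to 9.66) and 2.39% in control medium. Oas3 gave 18.2%, 30.1%, 27.5% and 17.5% in that order of libraries. Ifit3 took 93.6% of the reads of Ifit3 plus Ifit3b with the antibody (interval 88.5 to 96.9), 96.0% with CAF.CM (94.3 to 97.3) and 92.3% in control medium, a split that depends on how shared reads were assigned.

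**Figure D3:**
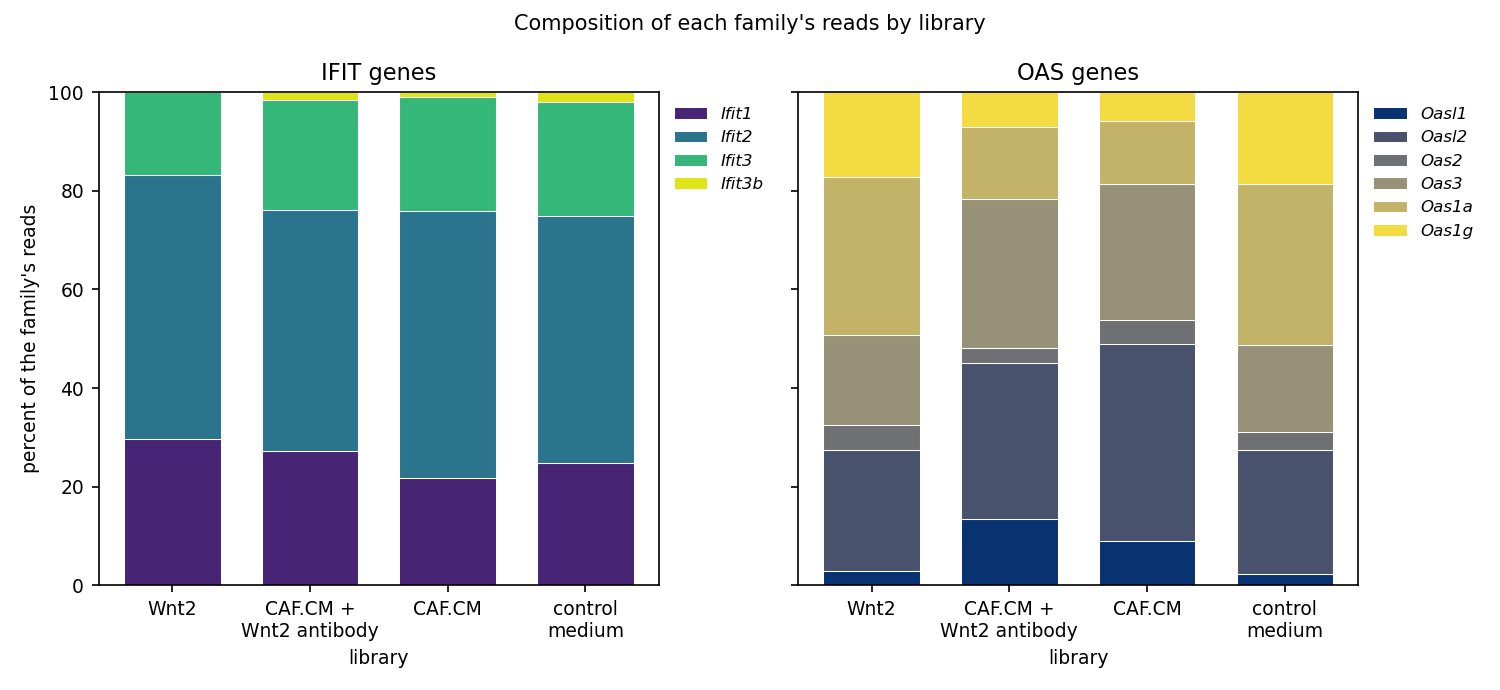
Percent of each family's reads given by each member, with IFIT genes on the left and OAS genes on the right, in the Wnt2, CAF.CM + Wnt2 antibody, CAF.CM and control medium libraries. Oas1a and Oas1g fill about as much of the OAS bar with Wnt2 (31.9% and 17.3%) as in control medium (32.7% and 18.6%), and much less in both CAF.CM libraries.

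Levels of different genes were set side by side as CPM per kilobase of the longest transcript. With Wnt2 the order was led by Oas1a (9.97), Oas1g (5.16), Oasl2 (4.63) and Oas3 (2.28), and the other 5 genes lay between 0.41 and 0.80. With the antibody Oasl2 (9.92) led Oas1a (7.54), Oas3 (6.23) and Oasl1 (6.01), whose interval overlapped that of Oas3. Ifit2, Ifit3, Oas1g and Ifit1 followed between 2.89 and 3.61, and each overlapped its neighbour in that order. With CAF.CM Oasl2 (30.4) led Ifit2 (16.3), Oas1a (16.0), Ifit3 (15.2) and Oas3 (13.8), and from Ifit2 to Oas3 each overlapped the next. In control medium Oas1a (12.8), Oas1g (6.98), Oasl2 (5.94) and Oas3 (2.75) led, as with Wnt2, and Ifit3 (1.46) and Ifit2 (1.44) overlapped. Ifit3b was lowest in the 3 libraries that list it, between 0.11 and 0.56. With merged exons as the length, Oas1a led all 4 libraries, and Oasl2 ranked 3 with the antibody and 4 with CAF.CM. With CAF.CM that lead was within counting error, since the interval of Oas1a (14.9 to 17.1) included the values of Ifit2 (15.9) and Ifit3 (15.2).

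Along the chromosomes, the ratios of CAF.CM over control medium were alike among the 3 well-measured genes of the IFIT cluster and unlike within the OAS cluster. With CAF.CM these 3 IFIT genes (Ifit1, Ifit2 and Ifit3) lay between 3.19 and 3.50 on the log2 scale. Ifit3b, which rests on few reads, stood lower at 2.27 (interval 1.61 to 3.18). Oas2 and Oas3, at the low-coordinate end of the OAS cluster, stood at 2.08 and 2.33, and Oas1g and Oas1a, at the other end, at 0.03 and 0.31. Oas1c and Oas1b lie between them. Oas1b, a flavivirus resistance gene annotated as a polymorphic pseudogene, had 2.32 CPM with Wnt2, 3.75 CPM with the antibody, 4.38 CPM with CAF.CM and 2.37 CPM in control medium, and Oas1c 4.32, 5.34, 8.87 and 4.80 CPM in that order. Both had log2 ratios of 0.88 with CAF.CM over control medium, in between their neighbours on either side. The IFIT genes were not alike in every comparison. With Wnt2 over control medium the intervals of Ifit3 (-2.14 to -1.51) and Ifit1 (-1.36 to -0.86) did not overlap. For the antibody over CAF.CM those of Ifit2 (-2.35 to -2.002) and Ifit1 (-1.96 to -1.47) did not either. Against control medium the antibody library had Ifit1, Ifit2 and Ifit3 between 1.30 and 1.48. Ifit1bl1, inside the IFIT cluster on the opposite strand, had 0.99 CPM with the antibody, 3.50 CPM with CAF.CM and 0.28 CPM in control medium, and a ratio of 3.55 for CAF.CM over control medium (interval 3.11 to 4.25). Like Ifit3b it reached 1 CPM only with CAF.CM. These were the 3 listed of 8 other genes of the families, and the ratios of Ifit1bl1 are given as a description, since its listing rests on the library where it is high.

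**Figure D4:**
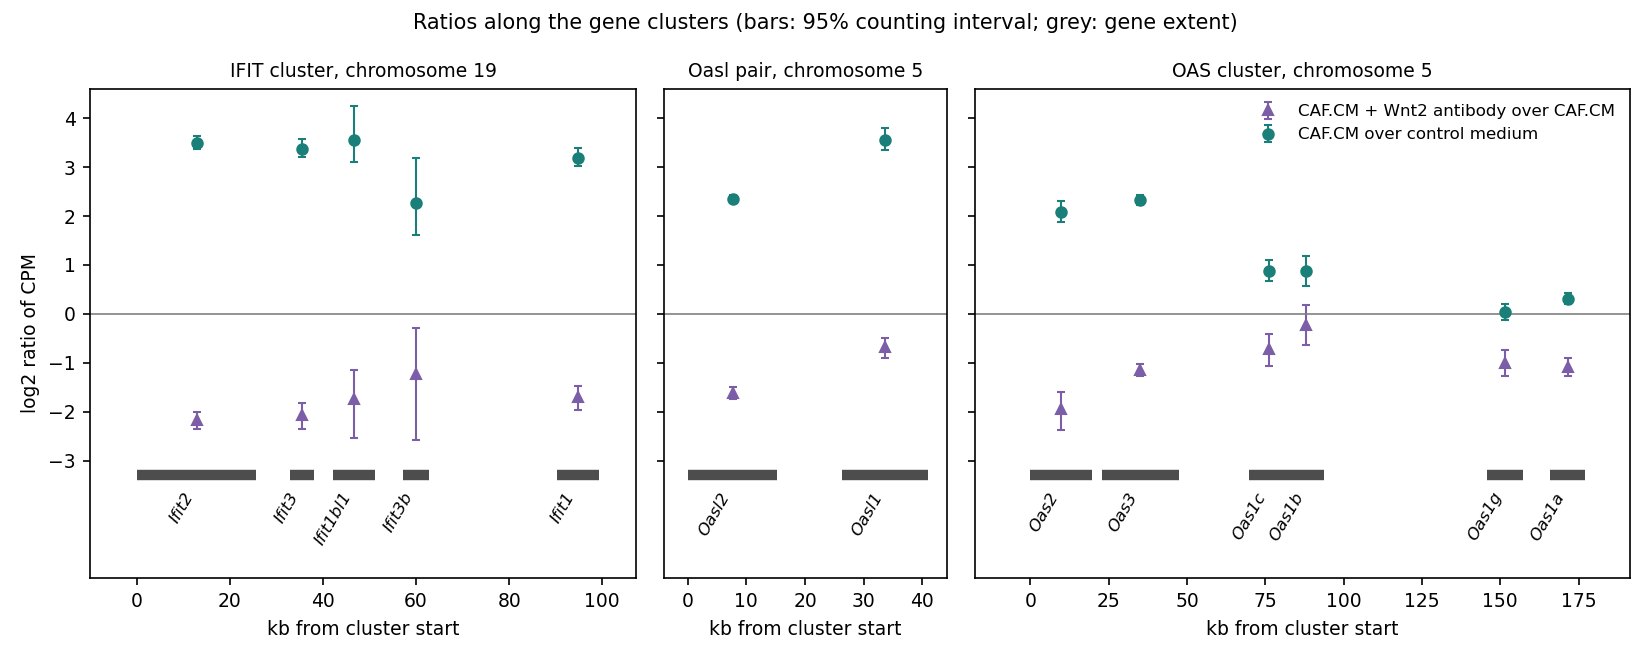
Log2 ratios of CPM for each listed IFIT and OAS gene against distance in kilobases from the start of its cluster, with 95% counting intervals as bars and grey bars for the extent of each gene. Ratios are given for CAF.CM + Wnt2 antibody over CAF.CM and for CAF.CM over control medium, and in the OAS cluster the ratio of CAF.CM over control medium is 2.08 at Oas2 and 2.33 at Oas3, 0.88 at Oas1c and Oas1b, 0.03 at Oas1g and 0.31 at Oas1a.

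Upstream of these genes, no interferon gene was listed in any table. The list held 19 ligand genes (Ifnb1, the Ifna genes, Ifne, Ifnk, the Ifnl genes and Ifng), and 0 reached the listing level of about 1 CPM, which does not show that they were not transcribed. All 9 genes for receptors and signalling in the list were found in the tables. With CAF.CM 2 were at least 2-fold higher than in control medium and 0 lower, against 6.68% and 8.69% of all genes. These were the kinase gene Jak2 (503 CPM with CAF.CM and 181 CPM in control medium, log2 ratio 1.47) and the receptor gene Ifnar2 (1.38). Stat2 at 0.88, Ifngr1 at -0.70 (150 CPM with CAF.CM and 244 CPM in control medium) and Irf9 at 0.57 were within 2-fold. With the antibody 1 of 9 was lower than with CAF.CM and 0 higher, where 3.65% and 1.02% of all genes were, namely Stat2 (32.8 CPM with the antibody and 73.9 CPM with CAF.CM, log2 ratio -1.17), while Irf9 stood at -0.73 and Ifngr1 at -0.61. Against control medium 2 of 9 were higher in the antibody library, Jak2 (1.30) and Ifnar2 (1.15), and 1 was lower, the interferon gamma receptor gene Ifngr1 (-1.31), while Stat2 stood at -0.29 and Irf9 at -0.16. Among all genes 8.06% were higher and 12.6% lower there. With Wnt2 0 of 9 passed 2-fold in either direction, where 2.87% of all genes were higher and 2.93% lower. Ifngr1 stood at 0.90, Stat2 at -0.16 and Irf9 at -0.14.

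Of the 5 interferon regulatory factor genes, Irf7, which drives type I interferon genes and is itself induced by interferon, had ratios near those of Oasl1. Irf7 had 11.1 CPM with Wnt2, 87.5 CPM with CAF.CM + Wnt2 antibody, 129 CPM with CAF.CM and 9.735 CPM in control medium. Its log2 ratios were 0.18 for Wnt2 over control medium, 3.73 for CAF.CM over control medium, -0.56 for the antibody over CAF.CM and 3.17 for the antibody over control medium, where Oasl1 had -0.02, 3.56, -0.69 and 2.87. With CAF.CM 1 of 5 was higher and 0 lower, against 6.68% and 8.69% of all genes, and Irf1 stood at 0.89, Irf8 at -0.62 and Irf5 at -0.54. With the antibody 0 of 5 passed 2-fold against CAF.CM, where 3.65% of all genes were lower and 1.02% higher. Irf8 stood at -0.86 and Irf1 at -0.63. Against control medium the antibody library had 1 of 5 higher, Irf7, and 2 lower, Irf8 (-1.48) and Irf5 (-1.02). Of all genes 8.06% were higher and 12.6% lower in that comparison. With Wnt2 0 of 5 passed, against 2.87% higher and 2.93% lower among all genes, with Irf5 at -0.29 and Irf1 at 0.24.

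Of 7 genes listed as negative regulators of the pathway, 4 were higher with CAF.CM and 0 lower, against 6.68% and 8.69% of all genes. Isg15 was counted in this list, but its ratios also lie near the members' median profile given further below. Socs3, an inhibitor of cytokine receptor kinases, stood at 2.78, its relative Socs1 at 2.46, Usp18, which removes ISG15 and blocks the type I receptor, at 2.01, and Isg15, a ubiquitin-like modifier, at 2.00 on the log2 scale. With the antibody 1 of 7 was lower than with CAF.CM and 0 higher, against 3.65% and 1.02% of all genes. This was Socs3 at -1.05, with Isg15 at -0.73, Usp18 at -0.31 and Socs1 at -0.30. Against control medium the same 4 genes were higher with the antibody and 0 of 7 were lower, against 8.06% and 12.6% of all genes, with Socs1 at 2.16, Socs3 at 1.74, Usp18 at 1.70 and Isg15 at 1.26. With Wnt2 1 of 7 was higher and 0 lower, against 2.87% and 2.93% of all genes, again Socs3 (40.2 CPM with Wnt2 and 13.8 CPM in control medium, log2 ratio 1.54), with Usp18 at 0.59 and Isg15 at -0.58.

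**Figure D5:**
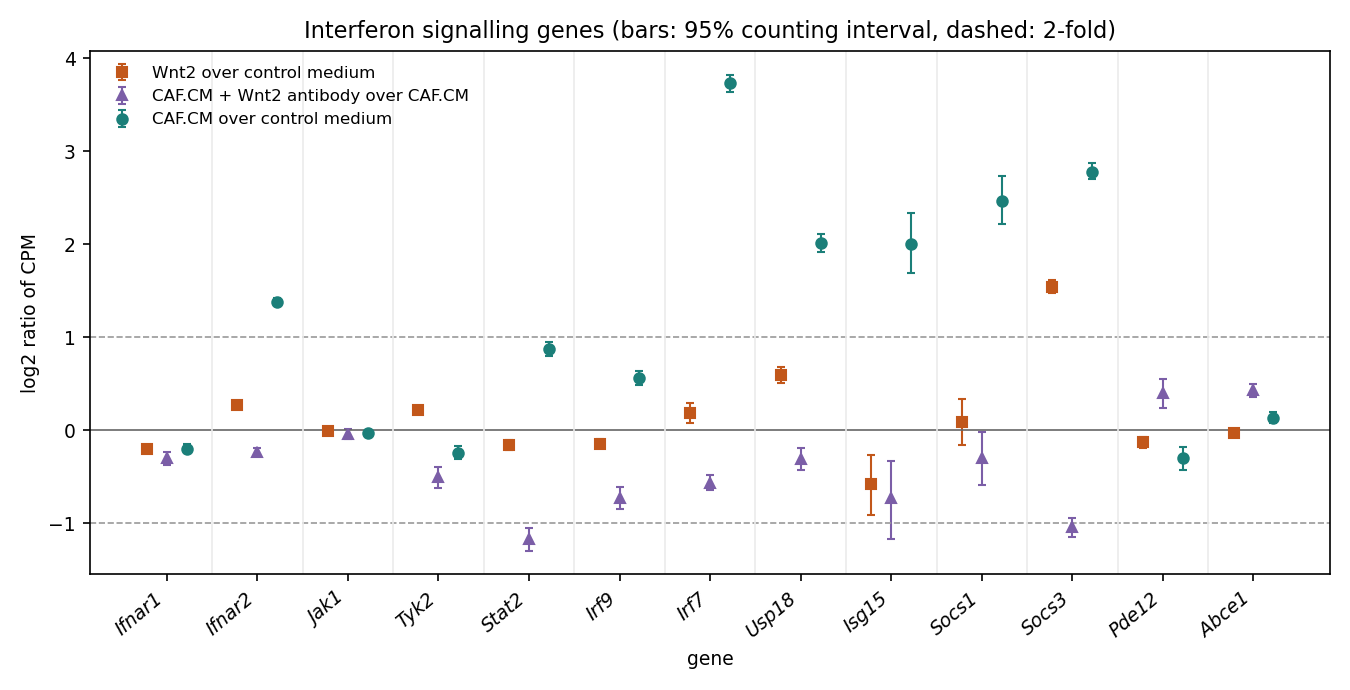
Log2 ratios of CPM of genes around the IFIT and OAS families, for Wnt2 over control medium, CAF.CM + Wnt2 antibody over CAF.CM and CAF.CM over control medium, with 95% counting intervals as bars and dashed lines at 2-fold. Irf7 has the highest CAF.CM ratio shown (3.73) and Stat2 the lowest antibody ratio (-1.17), and Pde12 and Abce1 lie within 2-fold throughout.

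Genes that act on the products or targets of the members were within 2-fold in every comparison. Among all genes between 1.02% and 12.6% passed 2-fold in a given direction, depending on the comparison. Pde12, a phosphodiesterase that degrades oligoadenylates, had 27.9 CPM with Wnt2, 32.7 CPM with CAF.CM + Wnt2 antibody, 24.8 CPM with CAF.CM and 30.6 CPM in control medium. Its log2 ratios were -0.13 for Wnt2 over control medium, 0.40 for the antibody over CAF.CM and -0.30 for CAF.CM over control medium. Abce1 stood at -0.02, 0.43 and 0.14 in the same comparisons, so 0 of 2 genes of this arm passed 2-fold in any of them. The cap methyltransferase genes Cmtr1 and Rnmt passed 2-fold in 0 of 2 cases in any comparison, with Cmtr1 at 0.31 and Rnmt at 0.15 for CAF.CM over control medium.

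Genes in a list of RNA and DNA sensors and adaptors were all found in the tables, and 3 of 13 were higher with CAF.CM and 0 lower, against 6.68% and 8.69% of all genes. They were Zbp1 (1.97), the RIG-I family genes Dhx58 (1.42) and Ddx58 (1.099), while Tlr9 stood at -0.89. With the antibody 2 of 13 were lower than with CAF.CM and 0 higher, against 3.65% and 1.02% of all genes. They were the double-stranded RNA receptor gene Tlr3 (-1.29) and Zbp1 (-1.20), with Tlr7 at -0.85 and Eif2ak2 at -0.76. Against control medium the antibody library had 1 of 13 higher, Dhx58 (1.15), and 3 lower, Tlr7 (-1.65), Tlr9 (-1.28) and Tmem173 (-1.09), against 8.06% higher and 12.6% lower among all genes. With Wnt2 0 of 13 passed 2-fold, against 2.87% higher and 2.93% lower among all genes, with Tlr9 at -0.61 and Tlr7 at 0.41.

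Genes most like the members were found by the distance of their 3 log2 ratios to control medium from the members' median profile, which was -0.36 for Wnt2, 1.18 for CAF.CM + Wnt2 antibody and 2.35 for CAF.CM. Among 12498 genes with at least 200 reads over the 4 libraries, the 8 nearest that are not members were Xaf1 (distance 0.414), Isg15 (0.420), Gzma (0.429), Ldhd (0.474), Gm6136 (0.474), Acsl1 (0.482), Antxr1 (0.569) and Dst (0.573). The 9 members with all 3 ratios lay at distances between 0.0971 (Oas3) and 3.16 (Oas1g). All of them but Oas3 and Oasl2 (0.440) lay farther from their own median than these 8 genes did. The 8 genes are thus near the median profile and not near most members. The 3 ratios share the control medium library, and likeness over 4 libraries describes these libraries alone.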

How the data were processed

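Stranded libraries were made from 1 ug of total RNA, depleted of ribosomal RNA, of cultured mouse dendritic cells, per the labels' protocols. The submitters' processing notes name the builds mm10 and GRCm38.p5 and the tools STAR 2.4.2a, RSEM 1.2.29 and edgeR, with no role or setting. The authors deposited normalized CPM with 3 decimals in 3 tables, 1 per comparison, together with log2 fold changes, p-values and adjusted p-values, per the file headers.

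Within a tolerance of 0.1 step, 100% of CPM values were whole multiples of the worth of 1 read, which gave the reads back and the authors' effective library sizes. Libraries present in both of their tables had identical values. Log2 ratios were computed over all listed genes with edgeR 4.0.16 in R 4.3.3, with a prior count of 2, and exact binomial 95% intervals with scipy 1.17.1, Python 3.11.15, numpy 2.4.6 and pandas 2.3.3. A count test was not run, since the spread cannot be estimated from 1 library per group. Figures used matplotlib 3.10.9 and identities Biopython 1.88.

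On simulated data 100% of the 200 genes changed 4-fold were called in each comparison, while of the unchanged genes 0 of 12920 were called for Wnt2, 5 of 13129 for CAF.CM, 13 of 12872 for the antibody over CAF.CM and 19 of 12648 for the antibody over control medium. The simulated counts held counting error only, with no spread between cultures, and the changed genes were drawn from those with at least 200 reads. These shares therefore check the computation and are not error rates for the calls made here.

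The members, pathway lists and markers were chosen with earlier results of these data known. Named were all members, up to 4 genes per list and comparison with the largest absolute ratio, Stat2, Irf9, Irf7 and Ifnb1 where listed, and the 8 nearest genes. A few list genes outside that rule (Ifnar1, Jak1 and Tyk2 in a figure) complete their group, and a few list genes are not reported here. Positions and transcripts came from GENCODE mouse release 21, promoters from RefSeq (GRCm38.p6).

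Alternatives were DESeq2 1.42.0 size factors, own TMM factors, total reads, prior counts of 0.5 and 5, a minimum of 100 reads, a 1.5-fold threshold, the deposited fold changes and merged exons as lengths. Reads of Oas1a plus Oas1g as 1 gene were added after seeing the data.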

Additional observations from a re-analysis of the deposited data

How the results depend on the processing

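Member ratios were recomputed with other scalings and prior counts, the deposited fold changes (not given for the antibody over control medium) and the sums of copies. Counted together with the values under the minimum of 100 reads, 261 of 267 values stayed on their side of 2-fold and 0 reversed. That minimum only leaves out Ifit3b and repeats the other reported ratios, so those repeats could not change side. Oas1g was past 2-fold lower in the antibody over CAF.CM comparison with total reads (-1.02), a prior count of 0.5 (-1.003) and the deposited fold changes (-1.004). Ifit3b was past 2-fold higher in the antibody over control medium comparison with DESeq2 size factors (1.01), own TMM factors (1.0015) and a prior count of 0.5 (1.003). Oasl1 under Wnt2 changed sign around 0 in 2 alternatives, the DESeq2 size factors and own TMM factors. At 1.5-fold, 2 members (Oas1a and Oas1g) were lower with the antibody than in control medium, against 0 at 2-fold, 7 were higher there against 5, and 10 of 10 were lower with the antibody than with CAF.CM against 8. The share of all genes that pass 1.5-fold was not computed, so these counts cannot be set against a background. No scaling moved the median of all genes by more than 0.1. Summed as 1 gene, Ifit3 plus Ifit3b stood at 3.32 for CAF.CM over control medium and -2.03 for the antibody over CAF.CM, and Oas1a plus Oas1g, a sum chosen after seeing the data, at 0.22 and -1.05. No paired analysis was possible because each group has 1 sample, and no library could be left out. Below about 1 CPM the CAF.CM libraries rest on few reads, which limits Ifit3b. The spread between cultures is unknown for every value.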
